A study of Mus musculus with 2 samples.

Results

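The collagen-richest fibroblasts of mouse kidney described here are 411 cells of the library labelled sham, out of 8215 kept cells, 10812 barcodes in that library and 12103 barcodes in the series. A barcode was kept with at least 2000 unique molecular identifiers (UMIs, each counting 1 captured transcript), at most 10% of them mitochondrial, at least 3 of the 6 stromal genes Col1a1, Col1a2, Col3a1, Dcn, Pdgfra and Pdgfrb detected, and at most 1 of Pecam1, Ptprc, Epcam, Tyrobp and Umod. Each kept cell was scored by the share of its UMIs from Col1a1, Col1a2, Col3a1, Col5a1 and Col5a2, and the members are the top 5% by that score. They are set against the 4108 cells in the lowest 50%, called the lowest-scoring cells here, and the 3696 cells between are used for the gradient. The members were thus chosen by measured values, the summed UMIs of the 5 score genes, so every contrast with the other cells is a description of 1 library, with no test and no p-value.

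Fibrillar collagens give tissue its tensile strength, and types I and III make up most of the fibril while type V sets its diameter. Procollagen chains are hydroxylated and folded in the endoplasmic reticulum by dedicated enzymes and chaperones, trimmed after secretion and then crosslinked by lysyl oxidases. In the kidney, the interstitial fibroblasts and pericytes that carry the PDGF receptors are the main producers of this matrix, and their output grows in fibrosis.

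The series profiled FVBN mouse kidney cells selected for PDGFRa and PDGFRb by 10x Chromium version 2 single-cell RNA sequencing from the 3′ end. One library is labelled sham, and the other comes from kidney at day 10 after unilateral ureteral obstruction (UUO), in which blocked urine flow leads to tubular injury and fibrosis. Both therefore share the strain, the tissue, the enzymatic digestion and the receptor selection. The labels give neither the sex, the age nor the number of animals, and there is 1 library per label, so differences between the libraries cannot be told apart from differences between preparations.

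The label of each library is used only as a name, because part of the expression ran against it. Spp1 (osteopontin), a secreted glycoprotein known to be induced in injured kidney, stood at 6237 counts per 1000000 summed UMIs of a group (CPM) in the members and 17122 CPM in the lowest-scoring cells of the library labelled sham. Under the same rule it stood at 340 CPM in the top 5% and 223 CPM in the lowest 50% of the library labelled UUO. Timp1, an inhibitor of matrix metalloproteinases, stood at 914 CPM in members and 676 CPM in lowest-scoring cells, against 79.2 CPM in the top 5% and 28.3 CPM in the lowest 50% of the library labelled UUO. The libraries share 16 barcode sequences, 7 of them among kept cells of both, and 1 of these is a member.

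The members were shallower than the cells they are set against. Their median was 5169 UMIs per cell (2020 to 31955), against 8070.5 in the lowest-scoring cells. A median of 2277 genes was detected in members, against 2955 in the lowest-scoring cells. Their median mitochondrial share was 4.74%, against 2.01% in the lowest-scoring cells. The plot of depth and mitochondrial share by score shows that both shift within the last bins. The part that depth or RNA quality plays in the differences was not tested; a restriction to cells of 4000 to 8000 UMIs left 112 members. Of 107 named genes outside the score, 23 moved by over 1.5-fold under it and 7 changed direction. Among those past 2-fold, it left Apod at 0.40 on the log2 scale in place of 4.11, Cxcl13 at 0.23 in place of 3.25, Ccn3 at 1.15 in place of 2.92, Pycr1 at 0.67 in place of 1.18 and Tgfbr3 at 0.96 in place of 1.12.

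**Figure D1:**
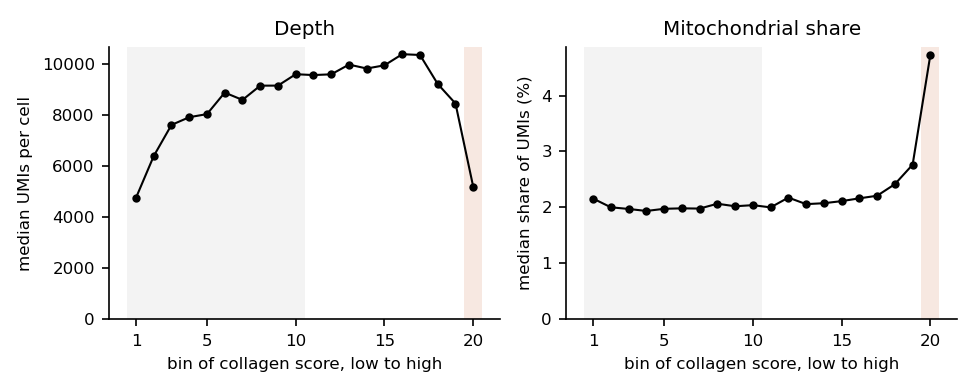
Median UMIs per cell (left) and median mitochondrial share in percent (right) for the kept cells of the library labelled sham in 20 equal bins of collagen score, lowest to highest; the shaded right bin holds 410 of the members, and the shaded left bins are those of the lowest-scoring cells. Depth is highest in the bins before the last ones and drops to a median of 5191 UMIs in the last bin, whose mitochondrial share of 4.73% is the highest of the 20 bins.

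Sex-linked transcripts were mixed in this library. Of the members, 45.5% held Xist and no Y-linked UMI, 22.6% the reverse, 16.1% both and 15.8% neither, against 54.1%, 19.4%, 12.6% and 14.0% of the lowest-scoring cells.

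The members carried fibroblast markers, in part because the rule that kept cells requires some of them. The 10 fibroblast markers summed to 34992 CPM in members and 8753 CPM in the lowest-scoring cells. Of these, 6 are the stromal genes used to keep cells, and 3 of the 6 are also score genes. The 8 myofibroblast or contractile markers summed to 5189 CPM in members and 3736 CPM in lowest-scoring cells. They include the matrix genes Fn1 (1300.4 CPM in members, 679 CPM in lowest-scoring cells) and Postn (295 CPM in members, 36.8 CPM in lowest-scoring cells). Of the contractile ones, Acta2 was higher in members (1593 CPM, against 1083 CPM) and Tagln was nearly level (947 CPM, against 967 CPM). The rule also limits Pecam1, Ptprc and Tyrobp, which are among the endothelial and leukocyte markers. Pericyte, smooth muscle and renin markers summed to 253 CPM in members and 450 CPM in the lowest-scoring cells. Of the Ren1 UMIs in the lowest-scoring cells, 50% were held by 5 cells. Within this class Des was lower in members (122 CPM, against 212 CPM in lowest-scoring cells) and Myh11 was higher (24.9 CPM, against 6.76 CPM). Endothelial markers summed to 388 CPM in members and 950 CPM in lowest-scoring cells, and leukocyte markers to 203 CPM in members, with Nkg7 at 0, and 684 CPM in lowest-scoring cells. Proximal tubule markers summed to 20.2 CPM in members and 54.1 CPM in lowest-scoring cells. Mesothelial markers summed to 1.68 CPM in members and 4.49 CPM in the lowest-scoring cells, with 3 of 5 at 0 in the members. Erythroid transcripts summed to 28.6 CPM in members, against 391 CPM in the lowest-scoring cells, of which 6 cells held 10 or more erythroid UMIs. At least 1 such UMI was found in 13.4% of members and 13.1% of lowest-scoring cells.

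A class taken from a score is a range and not a cell type. The members' score was 1.90% at its lowest, 2.41% at the median and 8.46% at its highest, against 0.0143%, 0.501% and 0.733% in the lowest-scoring cells. The last cell inside stood at 1.9043% and the first outside at 1.90109%. Within 10% of the cut in relative terms lay 106 cells above and 149 below it. Above 3% there were 115 members, and above 5% there were 20. Choosing the members on one random part of the UMIs and scoring them on the other gave 2.74% in members and 0.524% in the lowest-scoring cells. Of the 411 cells chosen on that part, 363 (88.3%) were also among the members chosen on all UMIs, which include that part.

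**Figure D2:**
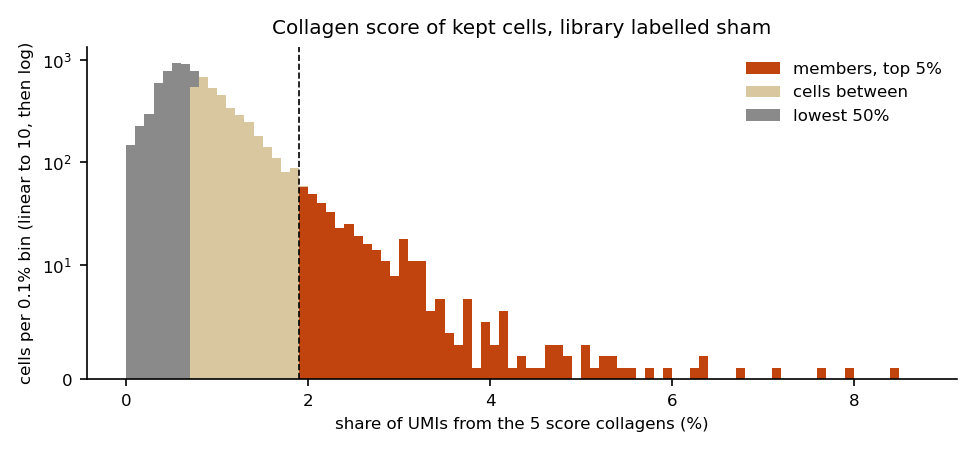
Kept cells of the library labelled sham by collagen score (percent of UMIs from the 5 score genes), in bins of 0.1%; the vertical axis counts cells on a scale that is linear to 10 and logarithmic above. The members form the right tail beyond the dashed line at 1.90269%, and no gap separates them from the cells below it.

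The upstream regions of 4 genes that these cells are about are given first: 3 score collagens and Meg3, the gene with the highest ratio outside the score once genes under 50 CPM or 50 counts are set aside. Each is the 250 bases before the gene's start in RefSeq (GRCm38.p6, reference strain), 5′ to 3′ on the gene's strand, which is plus for all 4. They lie at chr6:4505368-4505617 (Col1a2), chr1:45311288-45311537 (Col3a1), chr2:27886175-27886424 (Col5a1) and chr12:109540746-109540995 (Meg3, of which the table holds 2 promoters). The gene positions given further on are those of GENCODE M21, whose outer ends can differ from RefSeq's, so that the Col1a2 window lies inside the GENCODE gene. Capitals mark the letters of 2 motifs searched on both strands. One is CCAAT, which reads ATTGG on the opposite strand. The other is TATAAA, which reads TTTATA there.
Col1a2: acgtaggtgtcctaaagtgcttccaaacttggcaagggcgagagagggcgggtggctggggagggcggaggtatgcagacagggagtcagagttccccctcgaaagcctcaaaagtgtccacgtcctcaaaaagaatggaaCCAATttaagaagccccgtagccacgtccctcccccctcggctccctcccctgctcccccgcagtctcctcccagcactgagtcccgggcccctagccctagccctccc
Col3a1: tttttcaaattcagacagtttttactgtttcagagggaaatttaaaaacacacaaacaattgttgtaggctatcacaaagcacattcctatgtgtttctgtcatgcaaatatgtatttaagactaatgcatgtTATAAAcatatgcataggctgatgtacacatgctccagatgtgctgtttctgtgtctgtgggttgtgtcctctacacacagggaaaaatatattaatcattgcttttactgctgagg
Col5a1: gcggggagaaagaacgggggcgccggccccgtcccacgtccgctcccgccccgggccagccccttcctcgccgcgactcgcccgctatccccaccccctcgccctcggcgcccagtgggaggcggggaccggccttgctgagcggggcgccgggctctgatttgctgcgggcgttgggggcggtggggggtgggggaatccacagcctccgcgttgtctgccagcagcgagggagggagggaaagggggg
Meg3: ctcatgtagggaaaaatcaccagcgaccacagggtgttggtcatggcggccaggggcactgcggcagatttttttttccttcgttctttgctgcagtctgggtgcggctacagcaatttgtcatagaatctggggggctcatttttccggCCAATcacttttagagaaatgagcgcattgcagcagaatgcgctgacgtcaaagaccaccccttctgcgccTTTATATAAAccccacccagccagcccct
Among the 32851 RefSeq promoters of the same 250 bases, 33.8% hold CCAAT and 12.4% hold TATAAA. The letters CCAAT lay 109 to 105 bases before the start in Col1a2 and 100 to 96 bases before it in Meg3. The letters TATAAA lay 117 to 112 bases before the start in Col3a1. In Meg3 they lay 25 to 20 bases before the start on the plus strand, overlapping a minus-strand match 29 to 24 bases before the start, so one run of capitals covers both. Col5a1 held neither set of letters in this window. These matches are descriptions of the sequence. Col1a1, Col5a2, Lum, Cthrc1 and Sfrp4 had no entry.

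The 5 score genes set the size of the contrast and are given as levels only. Col3a1, the chain of type III collagen (chr1:45311538-45349706, plus strand, GRCm38), stood at 11377 CPM in members and 1798 CPM in the lowest-scoring cells, a ratio of 6.33 (95% counting interval 6.24 to 6.41). Counting intervals here and below are exact binomial intervals of the ratio of the 2 summed counts and cover counting error only, not the spread between cells or animals. Per cell and 10000 UMIs, Col3a1 was 26.4 at the lowest, 104 at the median and 383 at the highest member, against 0, 16.6 and 49.5 in the lowest-scoring cells. Col1a1, a chain of type I collagen (chr11:94936224-94953042, plus strand), stood at 8056 CPM in members and 1283 CPM in lowest-scoring cells (ratio 6.28, 6.18 to 6.38), with 19.2, 71.7 and 311 per 10000 UMIs over members and 0, 12.3 and 43.5 over the lowest-scoring cells. The partner chain Col1a2 (chr6:4504814-4541544, plus strand) stood at 7317 CPM in members and 1581 CPM in the lowest-scoring cells (ratio 4.63, 4.56 to 4.70). The medians of these major chains in members lay above the highest of the lowest-scoring cells, although the ranges overlapped. Endothelial barcodes, defined below and used as the background of free RNA, held 1083 CPM of Col3a1, 664 CPM of Col1a1 and 865 CPM of Col1a2. These barcodes can include lowest-scoring cells and doublets. The share of free RNA in the levels of either group was not tested. The type V chains were scarcer. Col5a1 (chr2:27886425-28039514, plus strand) stood at 330 CPM in members and 83.0 CPM in lowest-scoring cells (ratio 3.98), and Col5a2 (chr1:45374321-45503282, minus strand) at 813 CPM in members and 210 CPM in lowest-scoring cells (ratio 3.88).

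Outside the score genes, most transcripts were at about the same level in both groups. Counts over all genes, here and below, include the 5 score genes, which the choice of cells places among the higher ones. Of 8995 genes with at least 10 CPM in either group, 233 (2.59%) were at least 2-fold higher in members and 137 (1.52%) at least 2-fold lower, on the scale of log2 CPM with 5 CPM added to both, and the median over all genes was -0.02. This scale understates the ratios of scarce genes. Counts of list members below use the same rule and minimum, and each list's median is to be read against -0.02; the lists were chosen with earlier results known.

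Other collagens were higher with few exceptions. Of 19 measured genes of the 32 listed, 11 were at least 2-fold higher in members and none lower, with a median log2 ratio of 1.03. The beaded-filament collagen VI chains were among them. Col6a1 stood at 568 CPM in members and 169 CPM in the lowest-scoring cells (ratio 3.37, 3.19 to 3.56). Col6a2 had 357 CPM in members and 85.5 CPM in lowest-scoring cells. Col6a3 had 554 CPM in members and 183 CPM in lowest-scoring cells. Col12a1, a collagen that decorates fibril surfaces, stood at 1147 CPM in members and 374 CPM in the lowest-scoring cells (ratio 3.06, 2.95 to 3.18). Col5a3, the minor type V chain, stood at 29.9 CPM in members and 5.01 CPM in lowest-scoring cells. Col6a5 had 19.2 CPM in members and 0.437 CPM in lowest-scoring cells from 22 members, with 10 cells holding 77.2% of its UMIs. The basement membrane chains Col4a1 (517 CPM in members, 446 CPM in lowest-scoring cells, log2 0.21) and Col4a2 (574 CPM in members, 482 CPM in lowest-scoring cells, log2 0.25) differed little. Col18a1, the endostatin precursor, stood at 331 CPM in members and 477 CPM in the lowest-scoring cells (log2 -0.52).

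The machinery that folds and modifies procollagen stood higher as well, by less than the collagens themselves. Of 24 measured genes of the 25 listed, 3 were at least 2-fold higher in members, none was lower and the median was 0.69. P4ha3, a prolyl hydroxylase subunit, stood at 44.1 CPM in members and 9.56 CPM in the lowest-scoring cells (ratio 4.61, 3.74 to 5.66). Plod2, the lysyl hydroxylase of the collagen telopeptides, had 110 CPM in members and 29.7 CPM in lowest-scoring cells (ratio 3.72, 3.27 to 4.21). The prolyl isomerase Fkbp11 had 111 CPM in members and 48.8 CPM in lowest-scoring cells. Serpinh1, the collagen-specific chaperone, stood at 2492.5 CPM in members and 1490.1 CPM in the lowest-scoring cells (log2 0.74), and its ranges per cell overlapped almost fully, with 0, 22.9 and 141 per 10000 UMIs over members and 0, 13.7 and 116 over the lowest-scoring cells. Sparc, a collagen-binding protein of the secretory route, stood at 9484 CPM in members and 5239 CPM in lowest-scoring cells (log2 0.86), with medians per 10000 UMIs of 77.3 in members and 49.3 in lowest-scoring cells. Ppib, a general prolyl isomerase, stood at 896 CPM in members and 839 CPM in lowest-scoring cells (log2 0.09). Tmem38b, an ion channel of the endoplasmic reticulum, had 68.6 CPM in members and 84.7 CPM in lowest-scoring cells (log2 -0.28).

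The enzymes that act on secreted procollagen followed the same direction. Of 9 measured genes of the 16 listed, 4 were at least 2-fold higher, none was lower and the median was 0.85. Adamts2, which removes the amino-terminal propeptide, stood at 516 CPM in members and 174 CPM in the lowest-scoring cells (ratio 2.96, 2.80 to 3.13). Bmp1, the carboxy-terminal proteinase, stood at 346 CPM in members and 148 CPM in lowest-scoring cells. Its enhancer Pcolce2 had 26.2 CPM in members and 6.15 CPM in lowest-scoring cells. Pcolce had 1464 CPM in members and 808 CPM in lowest-scoring cells (log2 0.85). Lox, a lysyl oxidase that starts crosslinking, stood at 452 CPM in members and 180 CPM in lowest-scoring cells (ratio 2.51, 2.36 to 2.66), with medians per 10000 UMIs of 3.51 in members and 1.21 in lowest-scoring cells in overlapping ranges. Tgm2, a transglutaminase, stood at 114 CPM in members and 145 CPM in the lowest-scoring cells (log2 -0.33).

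Small leucine-rich proteoglycans, which bind and space collagen fibrils, split between genes that differed many-fold and genes that hardly differed. Together with versican, 6 of 10 measured genes of the 12 listed were at least 2-fold higher, none was lower and the median was 1.38. Lum, lumican (chr10:97565128-97572703, plus strand), stood at 825 CPM in members and 83.8 CPM in the lowest-scoring cells (ratio 9.85, 9.33 to 10.4). It was found in 217 of 411 members (52.8%) and 1060 of 4108 lowest-scoring cells (25.8%), and 28 members held 50% of its UMIs, so the level came from some of the members and not from all. After thinning every cell to 2000 UMIs, a Lum UMI was seen in 38.7% of 408 members and 10.2% of 4094 lowest-scoring cells, against 5.15% of 272 endothelial barcodes. These barcodes hold at least 3 of Pecam1, Cdh5, Kdr, Flt1 and Tie1, had a median of 4673 UMIs and should lack Lum. They were not separated from the lowest-scoring cells, so some barcodes can be in both sets, and doublets were not removed. Shallower cells, 3 members, 14 lowest-scoring cells and 1 endothelial barcode, were left out. Vcan, versican, stood at 317 CPM in members and 58.3 CPM in the lowest-scoring cells (ratio 5.44). Fmod had 44.1 CPM in members and 4.87 CPM in lowest-scoring cells. Aspn had 55.2 CPM in members and 17.7 CPM in lowest-scoring cells. Epyc stood at 57.9 CPM in members and 1.69 CPM in lowest-scoring cells from 21 members. Dcn, decorin, stood at 4605 CPM in members and 2364 CPM in lowest-scoring cells (log2 0.96), whereas biglycan did not differ by more than a few percent, with Bgn at 3893 CPM in members and 4085 CPM in the lowest-scoring cells (ratio 0.953, 0.935 to 0.971).

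Matricellular and adhesive glycoproteins, which signal to cells from the matrix, ranged in log2 ratio from -1.46, the lowest value of the 20 lists, to 3.72. Of 20 measured genes of the 23 listed, 9 were at least 2-fold higher, 1 was lower and the median was 0.92. Cthrc1, a secreted protein of collagen-producing fibroblasts (chr15:39076932-39087121, plus strand), stood at 190 CPM in members and 9.80 CPM in the lowest-scoring cells (ratio 19.4, 17.0 to 22.3), from 87 members, and 8 cells held 50% of its UMIs. Postn, periostin (chr3:54361109-54391037, plus strand), stood at 295 CPM in members and 36.8 CPM in lowest-scoring cells (ratio 8.02) and was spread more widely, over 223 members. Tnc, tenascin C, stood at 438 CPM in members and 171 CPM in lowest-scoring cells. Ccn5 had 62.9 CPM in members and 8.66 CPM in lowest-scoring cells. The surface protease Fap had 35.0 CPM in members and 7.76 CPM in lowest-scoring cells. Ccn3 stood at 45.4 CPM in members and 1.66 CPM in lowest-scoring cells, with 33.3% of its UMIs in 1 member. Fn1, fibronectin, stood at 1300.4 CPM in members and 679 CPM in lowest-scoring cells (log2 0.93).

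Spp1 was the gene on the other side, and its summed level was a matter of a few cells. It stood at 6237 CPM in members and 17122 CPM in the lowest-scoring cells (log2 -1.46), yet the median per cell was 22.4 per 10000 UMIs in members and 23.0 in the lowest-scoring cells, with highest values of 1609 in members and 4036 in lowest-scoring cells. A Spp1 UMI was found in 411 of 411 members and 4107 of 4108 lowest-scoring cells, and 50% of the UMIs were held by 21 members and by 212 lowest-scoring cells. After thinning, a Spp1 UMI was seen in 97.1% of members, 97.2% of lowest-scoring cells and 97.8% of endothelial barcodes, so its presence in a cell is at the background level and the typical level did not separate the groups. Among cells of 4000 to 8000 UMIs, the log2 ratio of Spp1 was -0.40.

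Elastic fibre and microfibril genes were higher in 8 of 17 measured cases by at least 2-fold, lower in 1, with a median of 0.99. Mfap5, a microfibril glycoprotein, stood at 1134 CPM in members and 264 CPM in the lowest-scoring cells (ratio 4.29, 4.13 to 4.47). Fbln2 had 305 CPM in members and 62.9 CPM in lowest-scoring cells (ratio 4.84, 4.48 to 5.24). Elastin (Eln) had 251 CPM in members and 92.0 CPM in lowest-scoring cells. Fibrillin (Fbn1) had 473 CPM in members and 196 CPM in lowest-scoring cells. Fbln5, which helps assemble elastic fibres, stood the other way at 306 CPM in members and 695 CPM in the lowest-scoring cells (ratio 0.441, 0.412 to 0.471). Of 9 measured basement membrane genes of the 10 listed, Lama4 (57.9 CPM in members, 20.1 CPM in lowest-scoring cells) and Nid2 (63.9 CPM in members, 28.2 CPM in lowest-scoring cells) were at least 2-fold higher, none was lower and the median was 0.71.

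Proteases and their inhibitors differed less. Of 20 measured genes of the 25 listed, 2 were at least 2-fold higher, 1 was lower and the median was 0.52. Serpinf1, a secreted serpin that binds collagen, stood at 683 CPM in members and 93.8 CPM in the lowest-scoring cells (ratio 7.28, 6.89 to 7.70). Mmp23 had 320.02 CPM in members and 155 CPM in lowest-scoring cells. Mmp2, a gelatinase, stood at 544 CPM in members and 381 CPM in lowest-scoring cells (log2 0.51). Timp1 had 914 CPM in members and 676 CPM in lowest-scoring cells (log2 0.43). Serpine2, a thrombin inhibitor, stood at 1357 CPM in members and 2749 CPM in the lowest-scoring cells (log2 -1.02). It was within 2-fold among cells of 4000 to 8000 UMIs (-0.18), after thinning (-0.53) and with equal weight for each cell (-0.58). No measured collagen receptor of 6 passed the 2-fold line in either direction (median 0.24), with the integrin chain Itgb1 at 443 CPM in members and 407 CPM in lowest-scoring cells. The uptake receptor Mrc2 had 175 CPM in members and 140 CPM in lowest-scoring cells. The discoidin receptor Ddr2 had 71.5 CPM in members and 61.7 CPM in lowest-scoring cells.

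Contractile genes, which mark myofibroblasts, had a lower median than the collagens. Of 15 measured genes of the 16 listed, 3 were at least 2-fold higher in members, none was lower and the median was 0.11. Over the alternatives that median lay between -0.23 among cells with Y-linked and no Xist UMIs and 0.39 with the top 10% as members. Acta2, smooth muscle actin, stood at 1593 CPM in members and 1083 CPM in the lowest-scoring cells (log2 0.55), with 0, 5.96 and 183 per 10000 UMIs over members and 0, 3.33 and 218 over the lowest-scoring cells. In the members, 33 cells held 50% of the Acta2 UMIs. Among cells of 4000 to 8000 UMIs its log2 ratio was 1.37, past 2-fold, and with the top 2% as members it was -0.01. Tagln (947 CPM in members, 967 CPM in lowest-scoring cells) and Myl9 (619 CPM in members, 635 CPM in lowest-scoring cells) were nearly level. The genes past 2-fold were scarce ones. Actg2 stood at 40.04 CPM in members and 12.4 CPM in lowest-scoring cells, with 26.9% of its UMIs in 1 member. Myh11 had 24.9 CPM in members and 6.76 CPM in lowest-scoring cells. Cnn1 had 19.9 CPM in members and 6.18 CPM in lowest-scoring cells. Des, desmin, stood at 122 CPM in members and 212 CPM in the lowest-scoring cells (log2 -0.77).

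The selecting receptors hardly separated the groups. Pdgfra stood at 302 CPM in members and 194 CPM in the lowest-scoring cells (log2 0.62). Pdgfrb had 317 CPM in members and 281 CPM in lowest-scoring cells (log2 0.17). Both are also among the genes used to keep cells. Of 5 measured PDGF genes of the 7 listed, only the receptor-like Pdgfrl was at least 2-fold higher, at 342 CPM in members and 97.6 CPM in lowest-scoring cells (ratio 3.50, 3.26 to 3.76), and the median was 0.62. The ligand Pdgfa stood at 34.7 CPM in members and 58.8 CPM in the lowest-scoring cells.

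In the TGF-beta pathway, the main known inducer of collagen genes, 3 of 24 measured genes of the 25 listed were at least 2-fold higher, none was lower and the median was 0.36. They were the activin antagonist Fst (62.9 CPM in members, 17.8 CPM in lowest-scoring cells), the co-receptor Tgfbr3 (49.5 CPM in members, 20.1 CPM in lowest-scoring cells) and the activin subunit Inhbb (96.6 CPM in members, 44.1 CPM in lowest-scoring cells). The ligand Tgfb1 stood lower in members, at 160 CPM against 294 CPM in the lowest-scoring cells (log2 -0.86), while its receptor Tgfbr1 stood at 127 CPM in members and 65.5 CPM in lowest-scoring cells (log2 0.90). The inhibitory Smad7 had 52.5 CPM in members and 49.2 CPM in lowest-scoring cells (log2 0.09).

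The WNT list was led by secreted antagonists. Of 15 measured genes of the 20 listed, 6 were at least 2-fold higher, none was lower and the median was 0.55. Sfrp4, a secreted frizzled-related protein that binds WNT ligands (chr13:19623104-19632994, plus strand), stood at 323 CPM in members and 15.3 CPM in the lowest-scoring cells (ratio 21.1, 18.9 to 23.5). Its relatives were also higher. Sfrp2 had 135 CPM in members and 5.89 CPM in lowest-scoring cells. Sfrp1 had 1371 CPM in members and 565 CPM in lowest-scoring cells. The R-spondins Rspo3 (22.9 CPM in members, 5.39 CPM in lowest-scoring cells) and Rspo1 (11.1 CPM in members, 1.90 CPM in lowest-scoring cells), which enhance WNT signalling, and the ligand Wnt5a (72.3 CPM in members, 33.6 CPM in lowest-scoring cells) completed the group. Sfrp4 came from 86 members and Sfrp2 from 50, with 10 cells holding 50.9% of the Sfrp4 UMIs and 62.9% of those of Sfrp2. Nkd2, a Dishevelled-binding antagonist, stood at 109 CPM in members and 172 CPM in the lowest-scoring cells (log2 -0.64), and the direction turned to 0.38 among cells of 4000 to 8000 UMIs. Axin2, a WNT target, had 14.5 CPM in members and 10.9 CPM in lowest-scoring cells (log2 0.29).

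Markers of resting fibroblasts had the highest median of the 20 lists, 1.88, with 9 of 17 measured genes of the 18 listed at least 2-fold higher and none lower. That place was lost with the highest doublet scores left out (1.23, against 1.52 for proteoglycans), after thinning (1.16, against 1.18 for procollagen cleavage and crosslinking) and in 3 other alternatives. Clec3b (tetranectin) stood at 126 CPM in members and 9.01 CPM in the lowest-scoring cells (ratio 14.0). Igfbp6, a binding protein of insulin-like growth factors, had 407 CPM in members and 53.4 CPM in lowest-scoring cells. Igf1 had 364 CPM in members and 60.5 CPM in lowest-scoring cells. The peptidase inhibitor Pi16 had 304 CPM in members and 77.2 CPM in lowest-scoring cells. Scara5 had 26.6 CPM in members and 1.69 CPM in lowest-scoring cells. Apod, a lipocalin, stood at 145 CPM in members and 3.67 CPM in lowest-scoring cells, but 1 member held 88.6% of its 431 UMIs and without that cell the members' level was 16.5 CPM. Within the same list Gsn (792 CPM in members, 744 CPM in lowest-scoring cells) hardly differed, and Cd34 stood at 42.7 CPM in members and 77.0 CPM in the lowest-scoring cells (log2 -0.78). Cd34 also marks endothelium and stood at 740 CPM in endothelial barcodes, and among cells with 0 non-stromal markers its log2 ratio was -0.33.

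Inflammatory mediators stood on both sides, with 8 of 17 measured genes at least 2-fold higher, 2 lower and a median of 0.77. The chemokines Cxcl1 (394 CPM in members, 87.4 CPM in lowest-scoring cells), Ccl7 (272 CPM in members, 42.5 CPM in lowest-scoring cells), Ccl11 (154 CPM in members, 40.3 CPM in lowest-scoring cells) and Cxcl5 (65.3 CPM in members, 4.90 CPM in lowest-scoring cells) and the complement component C3 (224 CPM in members, 28.0 CPM in lowest-scoring cells) were higher in members. Saa3, an acute-phase protein, stood at 174 CPM in members and 4.84 CPM in the lowest-scoring cells. It came from 40 members with 20.3% of its UMIs in 1 of them, 50% in 3 and 93.1% in 10. Of its values, 60.2% were not whole numbers, so its level depends on how reads were shared with similar genes. Cxcl13, a B cell chemoattractant, stood at 61.2 CPM in members and 1.95 CPM in lowest-scoring cells from 9 members, 1 of which held 54.9% of its UMIs. Il34, a ligand of the macrophage growth factor receptor, stood at 15.8 CPM in members and 49.0 CPM in the lowest-scoring cells. Lcn2 had 21.2 CPM in members and 61.8 CPM in lowest-scoring cells, 7 of which held 50% of its UMIs. The log2 ratio of Lcn2 was 0.50 among cells with 0 non-stromal markers, and that of Cxcl13 was -0.52 among cells with Xist and no Y-linked UMIs.

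Among transcription factors, 2 of 20 measured genes of the 26 listed were at least 2-fold higher, 1 was lower and the median was 0.44. Osr1, a factor of kidney stromal progenitors, stood at 20.2 CPM in members and 1.05 CPM in the lowest-scoring cells (ratio 19.2, 12.5 to 29.9). The homeobox factor Prrx2 had 45.1 CPM in members and 17.6 CPM in lowest-scoring cells. Its relative Prrx1 had 147 CPM in members and 72.2 CPM in lowest-scoring cells (log2 0.98). Tcf21, a factor of interstitial and mesangial lineages, stood at 194 CPM in members and 444 CPM in the lowest-scoring cells (ratio 0.436, 0.401 to 0.474). Creb3l1, which is cleaved in the Golgi and activates collagen genes, stood at 90.9 CPM in members and 46.7 CPM in lowest-scoring cells (log2 0.89).

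Over all members, genes of general secretory capacity, amino acid supply and energy metabolism moved little beside these differences. None of 41 secretory pathway and chaperone genes passed 2-fold in either direction (median 0.29), with Hspa5 at 653 CPM in members and 456 CPM in lowest-scoring cells. Sec31a had 135 CPM in members and 78.5 CPM in lowest-scoring cells (log2 0.74). Lman1 had the highest log2 ratio of this list, 0.81. Among cells of 4000 to 8000 UMIs both were past 2-fold, Sec31a at 1.23 and Lman1 at 1.53. Tmed10 had 345 CPM in members and 388 CPM in lowest-scoring cells. Of 9 measured genes of proline, glycine and serine synthesis of the 15 listed, only Pycr1, the last step of proline synthesis, was at least 2-fold higher (28.6 CPM in members, 9.80 CPM in lowest-scoring cells, median 0.27). Among cells of 4000 to 8000 UMIs, Pycr1 stood at 0.67 in place of 1.18 and Slc38a2 at 1.26 in place of 0.91. None of 17 glycolysis and hypoxia genes passed 2-fold (median -0.12), with Ldha at 459 CPM in members and 657 CPM in the lowest-scoring cells. None of 15 immediate early and heat shock genes did either (median 0.14), with Fos at 3387 CPM in members and 3142 CPM in lowest-scoring cells. Jun had 1975 CPM in members and 1817 CPM in lowest-scoring cells. Hspa1a had 542 CPM in members and 491 CPM in lowest-scoring cells.

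Meg3, a long noncoding RNA of the imprinted Dlk1 locus (chr12:109541001-109571726, plus strand), had the highest ratio of all genes that met the rule for named genes. It stood at 658 CPM in members and 8.73 CPM in the lowest-scoring cells (ratio 75.3, 66.5 to 85.2), with 33.5 CPM in the cells between and 1.24 CPM in endothelial barcodes. Small RNA genes lie within it on the same strand and Gm26906 overlaps it on the other. Its UMIs came from 105 members, 16 of which held 50% of them, and the median over members was 0 with a highest value of 99.2 per 10000 UMIs. Without thinning a Meg3 UMI was found in 25.5% of members and 2.97% of lowest-scoring cells. After thinning to 2000 UMIs, it was seen in 22.3% of members and 1.15% of lowest-scoring cells, and in 0 of 272 endothelial barcodes, which allows a share of up to 1.35%. Its log2 ratio was 5.59, and 4.62 among cells of 4000 to 8000 UMIs. The other named genes with the highest ratios were Sfrp4, Saa3, Apod, Cthrc1, Sfrp2, Itgbl1 (71.0 CPM in members, 2.92 CPM in lowest-scoring cells), Cxcl13, Epyc, Clec3b, Lum and Rbp4, the retinol carrier (108 CPM in members, 9.80 CPM in lowest-scoring cells).

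The 12 named genes with the lowest ratios included several that endothelium or antigen-presenting cells express. Gpihbp1, which anchors lipoprotein lipase on capillaries, stood at 4.37 CPM in members, from 13 UMIs, and 59.0 CPM in the lowest-scoring cells, against 1277 CPM in the 273 endothelial barcodes. The fatty acid carrier Fabp4 stood at 36.0 CPM in members and 178 CPM in the lowest-scoring cells, against 3292 CPM in endothelial barcodes, and Ccl21a, whose near-identical copies share reads, at 9.93 CPM in members and 83.6 CPM in lowest-scoring cells, against 1260 CPM in endothelial barcodes. In the lowest-scoring cells, 3 cells held 50% of the Ccl21a UMIs and 16 held 50% of those of H2-Aa. Among cells with 0 non-stromal markers, the log2 ratio of Gpihbp1 was -0.88 in place of -2.77, that of Fabp4 was -0.93 in place of -2.16, and that of H2-Aa, a class II antigen-presenting chain, was -0.20 in place of -1.93. The same restriction left Clca3a1 at -2.28 (17.5 CPM in members, 94.0 CPM in lowest-scoring cells), Dapk2 at -1.81 (27.3 CPM in members, 97.0 CPM in lowest-scoring cells), the gut and brain hormone Cck at -1.74 (98.6 CPM in members, 304 CPM in lowest-scoring cells), Lmcd1 at -1.78 (18.5 CPM in members, 73.5 CPM in lowest-scoring cells) and Irf8 at -1.62 (35.0 CPM in members, 116 CPM in lowest-scoring cells). Adap2os (13.5 CPM in members, 51.9 CPM in lowest-scoring cells), Fabp5 (15.7 CPM in members, 54.6 CPM in lowest-scoring cells) and Serpina1b (35.4 CPM in members, 133 CPM in lowest-scoring cells), the last from a family of near-identical genes, complete the 12.

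Splitting the kept cells into 20 equal bins of score showed that genes differed in shape along the range. Serpinh1, Fn1, Col12a1, Mfap5, Lox and Plod2 stood gradually higher toward the top, with small steps down between some neighbouring bins, and each had its highest level in bin 20; the score genes do so because the bins are cut by them. Meg3, Sfrp4, Cthrc1, Saa3 and Clec3b stayed low over most bins and were higher by a large step in the last one: Meg3 stood at 658 CPM in bin 20 and 85.3 CPM in bin 19, and Cthrc1 at 190 CPM in bin 20 and 32.4 CPM in bin 19. Acta2 was highest before the last bin, with 1594 CPM in bin 20 and 2423 CPM in bin 19. Across 8190 kept cells thinned to 2000 UMIs, the genes ranked most like the score among 2753 common genes were Ccdc80 (Spearman's rho 0.33), Sfrp1 (0.30), Col12a1 (0.29), Serpinf1 (0.26), Mfap5 (0.26), Fn1 (0.26), Serpinh1 (0.26), Sparc (0.25), Col6a3 (0.25) and Adamts2 (0.25). These are weak correlations over cells of 1 library that share its depth and free RNA. The lowest were Tmsb4x (-0.31), B2m (-0.25) and Fth1 (-0.23).

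**Figure D3:**
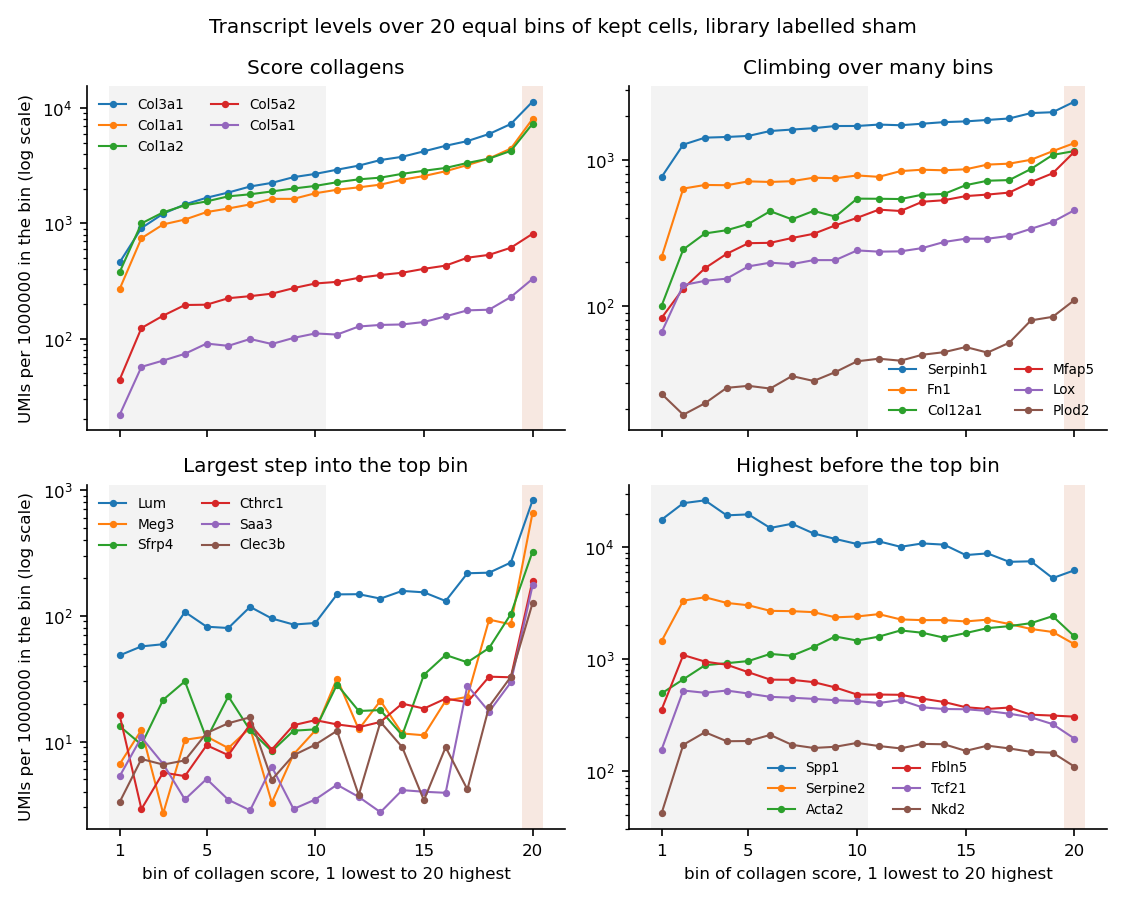
Levels (CPM in the bin, log scale) of named genes in 20 equal bins of the kept cells of the library labelled sham, from the lowest collagen score (1) to the highest (20); bin 20 holds 410 of the members, and the shaded left bins are those of the lowest-scoring cells. The score collagens climb along the range because the bins are cut by their sum, while Meg3 stands at 658 CPM in bin 20 and 85.3 CPM in bin 19, and Acta2 is lower in bin 20 than in bin 19.

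Members were not alike, and a split by Meg3 gave 2 profiles. It was made after the values had been seen and is a description. The 105 members with a Meg3 UMI had a median score of 3.12%, a median of 9323 UMIs and a median mitochondrial share of 2.18%. The 306 without one had medians of 2.29%, 4440.5 UMIs and 5.84%, and 180 of them exceeded 5% mitochondrial UMIs. A shallower cell is less likely to show a Meg3 UMI, and the part of depth in the split was not tested. The members with Meg3 held a median of 10 Meg3 UMIs, and 86 of the 105 held 3 or more. At least 8000 UMIs were found in 66 of the 105 members with Meg3 and 86 of the 306 without. Of the 137 members with the highest scores 45.3% held Meg3, against 19.7% of the next 137 and 11.7% of the last 137. Of the 105 members with Meg3, 22 held Xist and no Y-linked UMI and 33 the reverse, whereas of the 306 without it 165 and 60 did.

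The profile with Meg3 joined collagen I to resting fibroblast and inflammatory genes. Against the lowest-scoring cells, members with Meg3 had 437 of 8941 genes at least 2-fold higher (4.89%) and 548 lower by as much (6.13%), and members without it had 204 of 9036 higher (2.26%) and 126 lower (1.39%). Col1a1 stood at 10863 CPM in members with Meg3, 6618 CPM in those without and 1283 CPM in the lowest-scoring cells. Lum stood at 1818 CPM with Meg3, 317 CPM without and 83.8 CPM in lowest-scoring cells. Dcn had 8500.3 CPM with Meg3, 2609.6 CPM without and 2364 CPM in lowest-scoring cells, so only the first of these stood well above the others. Igfbp6 had 992 CPM with Meg3, 107 CPM without and 53.4 CPM in lowest-scoring cells. The WNT antagonist Sfrp4 had 723 CPM with Meg3, 119 CPM without and 15.3 CPM in lowest-scoring cells. Cthrc1 had 514 CPM with Meg3, 24.9 CPM without and 9.80 CPM in lowest-scoring cells. Cxcl1 stood at 1028 CPM in members with Meg3 and at 69.7 CPM in those without, which is below the 87.4 CPM of the lowest-scoring cells. Within the members, 66 of the 105 cells with Meg3 also held Sfrp4 (62.9%), against 20 of the 306 without (6.54%). Resting fibroblast genes were at least 2-fold higher in 11 of 17 measured cases in members with Meg3 (median 2.28) and in 2 of 14 in those without (median 0.27, 2 lower). Inflammatory mediators were higher in 10 of 17 with Meg3 (median 1.69, 2 lower) and in 4 of 16 without (median -0.13, 3 lower).

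Contractile genes stood higher in the profile without Meg3. Acta2 stood at 307 CPM in members with Meg3 and at 2252 CPM in those without, against 1083 CPM in the lowest-scoring cells. Tagln had 183 CPM with Meg3, 1339 CPM without and 967 CPM in lowest-scoring cells. Contractile genes were at least 2-fold lower in 9 of 13 measured cases in members with Meg3 (median -1.26), and at least 2-fold higher in 5 of 16 in those without (median 0.51). Some matrix genes went with them. Col12a1 had 445 CPM with Meg3, 1507 CPM without and 374 CPM in lowest-scoring cells. Tnc had 117 CPM with Meg3, 602 CPM without and 171 CPM in lowest-scoring cells. Vcan had 144 CPM with Meg3, 406 CPM without and 58.3 CPM in lowest-scoring cells. The homeobox factor Alx1, at 70.5 CPM with Meg3, 607 CPM without and 291 CPM in lowest-scoring cells, was below the lowest-scoring cells in one profile and above them in the other. Spp1 had 2089 CPM with Meg3, 8363 CPM without and 17122 CPM in lowest-scoring cells. Pdgfrb stood at 145 CPM in members with Meg3, 405 CPM in those without and 281 CPM in the lowest-scoring cells. Collagens and their enzymes stood higher in both profiles, in part through different genes. Other collagens were higher in 9 of 20 measured cases with Meg3 (median 0.73, 1 lower) and in 8 of 18 without (median 0.92), and 4 were higher in both, namely Col5a3, Col6a1, Col6a2 and Col8a2. Hydroxylation and folding genes were higher in 5 of 24 with Meg3 (median 0.54, 2 lower) and in 5 of 24 without (median 0.56, none lower), and the 2 higher in both were P4ha3 and Plod2.

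**Figure D4:**
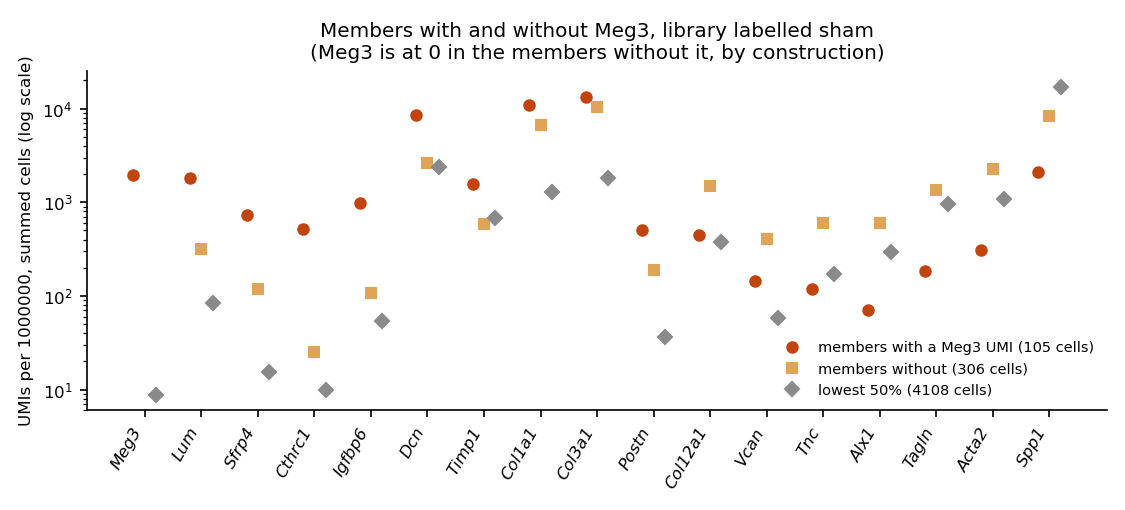
Levels (CPM over summed cells, log scale) of 17 genes in members with a Meg3 UMI (105 cells), members without one (306 cells) and the lowest-scoring 50% (4108 cells) of the library labelled sham. Lum, Sfrp4, Cthrc1 and Igfbp6 are highest in members with Meg3, whereas Acta2, Tagln, Tnc and Alx1 are highest in members without it.

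Meg3 was not limited to the members. Of 184 kept cells with at least 3 Meg3 UMIs, 86 were members (46.7%) and 21 were in the lowest 50% (11.4%). Sex-linked transcripts went with levels among the members too. Saa3 stood at 314 CPM in members with Y-linked UMIs only and 12.8 CPM in those with Xist only, from 9 of 93 cells with Y-linked only and 12 of 187 cells with Xist only. A few cells weigh heavily on these Saa3 levels, since 10 cells held 93.1% of its UMIs over all members. Cthrc1 stood at 362 CPM with Y-linked only and 28.2 CPM with Xist only, from 31 cells with Y-linked only and 21 cells with Xist only. Meg3 stood at 825 CPM with Y-linked only and 229 CPM with Xist only. Col1a1 was closer, at 8403 CPM with Y-linked only and 7117 CPM with Xist only. How many animals stand behind either set of cells is not given, so sex and animal cannot be told apart.

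The same rule in the library labelled UUO kept 635 of 1291 barcodes and gave 32 cells in the top 5% and 318 in the lowest 50%. Its collagen-richest cells had a median score of 1.62% (1.27% to 3.38%), below the 1.9043% that bounds the members of the library labelled sham, and a median of 7682 UMIs. Of 10237 genes, 633 (6.18%) were higher by 2-fold or more and 1670 (16.3%) lower by as much, with a median of -0.22, from 252579 UMIs in the 32 cells, so small counts weigh more here. Of the 233 genes higher in members of the library labelled sham, 117 were also higher in the library labelled UUO (50.2% of the first list and 18.5% of the second), and 7 were lower there. Of the 137 lower ones, 101 were also lower there (73.7% of the first list and 6.05% of the second). Of these lists, 192 of the 233 and 121 of the 137 genes met the minimum level in the library labelled UUO. The 117 shared genes include the score genes, by which the cells of both libraries were chosen.

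The medians of some lists were close in both libraries and those of others were not. Small leucine-rich proteoglycans and versican had medians of 1.38 (sham label) and 1.59 (UUO label), and other collagens of 1.03 (sham label) and 1.08 (UUO label). Matricellular genes had 0.92 (sham label) and 1.07 (UUO label), and resting fibroblast genes 1.88 (sham label) and 1.31 (UUO label). Medians stood on opposite sides of 0 for collagen receptors, at 0.24 (sham label) and -0.58 (UUO label), and for PDGF genes, at 0.62 (sham label) and -0.39 (UUO label). Inflammatory mediators had 0.77 (sham label) and 0.20 (UUO label), and proteases and inhibitors 0.52 (sham label) and 1.16 (UUO label). Immediate early genes had 0.14 (sham label) and 0.72 (UUO label). In the library labelled UUO, Serpinf1 had 3159 CPM in the top 5% and 377 CPM in the lowest 50%, and Eln had 998 CPM in the top 5% and 55.6 CPM in the lowest 50%. Ccn5 had 471 CPM in the top 5% and 19.7 CPM in the lowest 50% there, and Meg3 had 1077 CPM in the top 5% and 202 CPM in the lowest 50%. After thinning, a Meg3 UMI was seen in 16 of the 32 cells in the top 5% and 17.7% of the lowest 50% of the library labelled UUO, with 13.5% of its 52 endothelial barcodes as background. Contractile genes had medians of 0.11 in the library labelled sham, with 0 of 15 at least 2-fold lower, and -1.89 in the library labelled UUO, with 12 of 15 lower. Acta2 stood at 147 CPM in the top 5% and 962 CPM in the lowest 50% of the library labelled UUO. In that lowest 50%, 2 of 318 cells held at least 50% of its 1902 Acta2 UMIs. An Acta2 UMI was found in 18 of the 32 cells in the top 5% and 176 of the 318 in the lowest 50%. The part that such cells play in the median of the contractile list was not tested. Col12a1 stood at 23.8 CPM in the top 5% and 36.9 CPM in the lowest 50% there, whereas in the library labelled sham it had 1147 CPM in members and 374 CPM in lowest-scoring cells. The difference between the libraries was not tested, having 1 library each.

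**Figure D5:**
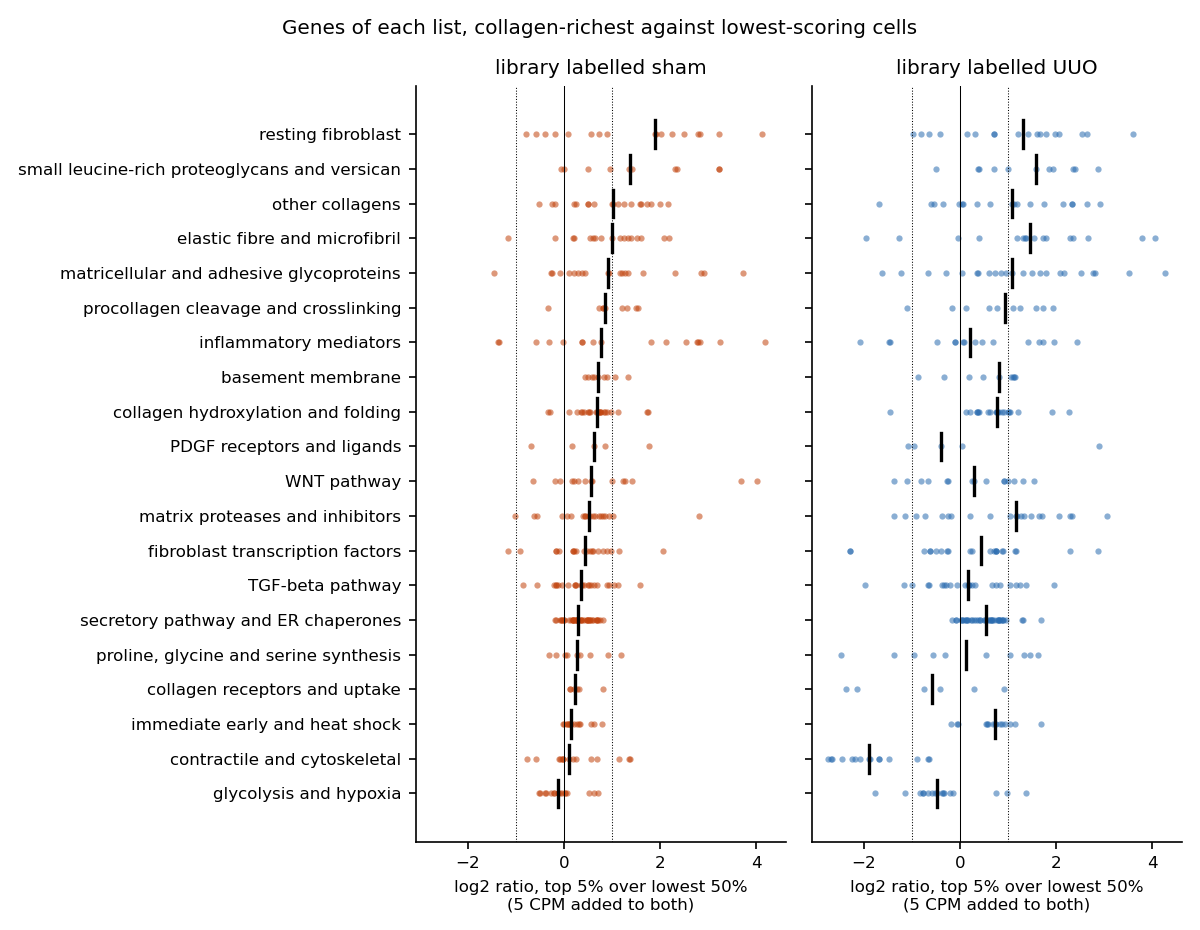
Log2 ratio of CPM (5 CPM added) in the top 5% over the lowest 50% by collagen score for each measured gene (points) of the 20 gene lists, with list medians as bars and dotted lines at 2-fold, in the library labelled sham (left) and the library labelled UUO (right). The contractile list has a median of 0.11 on the left and -1.89 on the right, while the collagen, proteoglycan and resting fibroblast lists lie right of 0 in both.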

How the data were processed

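Kidney cells of 2 libraries, labelled sham and UUO, were measured. Each deposited value is the expected count of a gene's UMIs in a barcode, which the authors made with alevin from Salmon 0.13.1 on mm10, per the submitters' processing notes; for the choice of barcodes ahead of deposit, no method is given in the sources used here. Alevin shares reads between similar genes, so 92.3% of the values above 0 (sham label) and 91.2% (UUO label) were whole (tolerance 1e-06), and values were used unrounded. Of 53698 gene entries, 53668 were found in GENCODE M21 by identifier. UMIs were summed over cells and scaled to counts per 1000000 UMIs (CPM). Because each label has 1 library and the cells were chosen by a measured score, the summed levels were compared without a test, as ratios with exact 95% binomial intervals and as log2 ratios after adding 5 CPM, over genes with at least 10 CPM in either group. PCR duplicates are removed by the UMIs, and the intervals cover counting error only.

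Cells were kept and scored as the report states, and the UMIs summed to 2971706 in members and 34297974 in the lowest-scoring cells. Genes named are, among those with at least 50 CPM and 50 counts, the 12 highest and 12 lowest ratios without score, mitochondrial, ribosomal and other cell type marker genes, the 2 highest and 2 lowest of each of 20 lists, and a fixed set of fibroblast genes; further list genes were named after their values were seen. The members, lists and rules were chosen with earlier results of these data known. All 462 symbols of the lists and markers matched, 5 by an older symbol. Endothelial barcodes serve as the background of free RNA, and some of them can also be lowest-scoring cells. Doublets were not removed in the reported values; an alternative left out the 929 barcodes with the highest doublet scores, 25 of them members. The calculation was tested on simulated counts with known ratios. Python 3.11.15 with numpy 2.4.6, scipy 1.17.1, pandas 2.3.3, scanpy 1.11.5 and matplotlib 3.10.9 was used.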

Additional observations from a re-analysis of the deposited data

Results flagged for a closer look

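For 4 of the genes named by the rule, the top 5% and the lowest 50% stood in opposite order in the libraries, by at least 1.5-fold in each and with counting intervals that leave out a ratio of 1, and the difference was not tested, with 1 library each. The difference between the log2 ratios (library labelled sham minus library labelled UUO) was -2.44 for Cd34, a surface protein of progenitors and endothelium, which had 42.7 CPM in the top 5% and 77.0 CPM in the lowest 50% of the library labelled sham, against 499 CPM in the top 5% and 154 CPM in the lowest 50% of the library labelled UUO. It was 4.70 for Cxcl13, with 61.2 CPM in the top 5% and 1.95 CPM in the lowest 50% (sham label), against 35.6 CPM in the top 5% and 106 CPM in the lowest 50% (UUO label). For Myh11, smooth muscle myosin, it was 3.59, with 24.9 CPM in the top 5% and 6.76 CPM in the lowest 50% (sham label), against 7.92 CPM in the top 5% and 56.1 CPM in the lowest 50% (UUO label). For Spp1 it was -2.06, with 6237 CPM in the top 5% and 17122 CPM in the lowest 50% (sham label), against 340 CPM in the top 5% and 223 CPM in the lowest 50% (UUO label). Few cells carried some of these levels in the library labelled UUO. Of 111 Myh11 UMIs in its lowest 50%, 1 cell held at least 50%, and its top 5% held 2 UMIs. Of 209 Cxcl13 UMIs in that lowest 50%, 3 cells held at least 50%, and the top 5% held 9 UMIs. Of 86 Spp1 UMIs in the top 5%, 2 of 32 cells held at least 50%. Cd34 was spread more widely, with 126 UMIs over 25 of those 32 cells.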

How the results depend on the processing

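No paired analysis was possible because each label has 1 library. The limits are those of 1 library and of cells chosen by the score, and scarce genes rest on few UMIs: the 32 collagen-richest cells of the library labelled UUO hold 252579 UMIs. Each count of genes past 2-fold was recomputed under 18 alternatives. The 233 genes higher in members became 381 with the top 2% as members, 350 in cells with Y-linked and no Xist UMIs, 102 with 20 CPM added and 531 in cells of 4000 to 8000 UMIs. The 137 lower genes became 256 with the top 2%, 251 against the lowest 25%, 84 with 0 non-stromal markers, 216 after thinning, 91 in cells with Xist only, 364 with Y-linked only, 40 with 20 CPM added and 360 in cells of 4000 to 8000 UMIs. In the library labelled UUO, the 633 higher genes became 1494 with the top 2%, 959 when chosen and measured on separate UMIs, 1835 after thinning, 1682 with Xist only, 1637 with Y-linked only, 272 with 20 CPM added, 1796 in cells of 4000 to 8000 UMIs and 1681 with 2% to 6% mitochondrial. Its 1670 lower genes became 2675 with the top 2%, 3104 after thinning, 3364 with Xist only, 2687 with Y-linked only, 497 with 20 CPM added, 2895 in cells of 4000 to 8000 UMIs and 2811 with 2% to 6% mitochondrial. Thinning and the narrower cell sets leave fewer UMIs. Of 107 named genes outside the score, 53 passed 2-fold, 51 of these kept their direction under all 18 alternatives and 27 also stayed past 2-fold; of the 54 within 2-fold, 21 turned direction under at least 1. Exceptions in direction were Lcn2, at 0.50 with 0 non-stromal markers, and Cxcl13, at -0.52 in cells with Xist only; the cause was not tested. The alternatives in cells of 4000 to 8000 UMIs and in cells with 2% to 6% mitochondrial UMIs were added after seeing the data.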
